A study of Homo sapiens with 4 samples.

Results

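RPPH1 is the gene of the RNA subunit of nuclear RNase P, and it was 1 of the 4208 rows of a table of reads around the 3′ ends of transcripts in A549 cells, a human non-small cell lung cancer line. The row was taken by its gene symbol, and it was chosen by its share of the upstream reads, its level in each condition and its low downstream/upstream ratio in these libraries, so these values are described here and carry no test. The libraries were made from nuclear RNA without rRNA, 2 from untreated cultures (UV-) and 2 from cultures that received 254 nm UV (40 J/m2) and then recovered for 16 h (UV+), each pair being independent biological replicates of the same parental line. For each row the table held reads of the last 500 nt before an annotated 3′ end (the upstream window) and of the 500 nt after it (the downstream window), a layout with which the study assessed cleavage at the polyadenylation signal (PAS) of pre-mRNAs.

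RNase P removes the 5′ leader of precursor tRNAs. Its RNA carries the catalytic centre, and a set of proteins, most of them shared with the related RNase MRP, folds and holds that RNA. RPPH1 RNA is made by RNA polymerase III, which starts at a promoter in front of the gene and stops at a run of T residues, so its end is not formed by PAS cleavage and poly(A) addition. In human cells the RNA is abundant, long-lived and mostly nuclear.

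RPPH1 lay on the minus strand of chromosome 14 at chr14:20811230-20811570 (GRCh37/hg19), a single noncoding unit of 341 nt, the length that RefSeq gives for the RNA. It was 1 of 125 rows shorter than the window. The upstream window (chr14:20811230-20811729) held the whole gene, which made up 68.2% of it, and the 159 nt in front of the gene. The downstream window was chr14:20810730-20811229. The promoter end and the gene end are shown because they carry the polymerase III signals, and the RNA because it is the annotated product of the row. All 3 stretches are GRCh37 reference sequence of the minus strand, written 5′ to 3′. In the promoter end (chr14:20811551-20811690) the capitals mark an octamer and a TATA box, which in the human gene belong to the promoter, and the last 20 nt are the start of the RNA. The first 300 of the 341 nt of the RNA (chr14:20811271-20811570) carry no capitals. In the gene end (chr14:20811170-20811289) the capitals mark the T run and the A run around the boundary between the windows.
Promoter end: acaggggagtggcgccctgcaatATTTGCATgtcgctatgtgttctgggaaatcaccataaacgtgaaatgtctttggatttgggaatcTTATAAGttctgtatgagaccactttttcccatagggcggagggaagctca
RNA, first 300 nt: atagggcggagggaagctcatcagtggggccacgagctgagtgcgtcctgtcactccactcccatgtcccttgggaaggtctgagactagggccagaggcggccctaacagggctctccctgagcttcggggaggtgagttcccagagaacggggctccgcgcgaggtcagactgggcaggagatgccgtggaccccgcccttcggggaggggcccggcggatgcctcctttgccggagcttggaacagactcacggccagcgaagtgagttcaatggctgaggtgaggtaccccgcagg
Gene end: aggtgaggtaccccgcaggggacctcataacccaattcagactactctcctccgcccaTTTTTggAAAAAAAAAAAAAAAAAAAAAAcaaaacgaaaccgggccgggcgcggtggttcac

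The octamer ATTTGCAT began 97 nt before the gene and the TATA box TTATAAG 31 nt before it. The octamer was present on either strand of the upstream window in 147 of the 4205 rows whose sequence was read (3.5%). A run of 5 T, of which 2 lay inside the annotated gene, crossed the boundary between the windows, and a T run of 5 or more within 10 nt of the boundary was found in 299 rows (7.11%). Neither AATAAA nor ATTAAA, the common PAS hexamers, occurred on the transcribed strand in the last 50 nt before the boundary of RPPH1, whereas 3060 rows (72.8%) had one there. Its whole upstream window held 0 copies of either hexamer. A run of 22 A began 6 nt after the boundary, and only 24 rows (0.571%) had an A run of 20 or more in the first 50 nt after theirs. The RNA was rich in G and C (63.6%), and its upstream window reached 59.4%, against a median of 38.4% over the rows.

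Short stretches of the upstream window occurred only at this locus, whereas some of those of the downstream window were repeated elsewhere. When the segments were divided into tiles of 25 nt, 13 of 13 tiles of the gene and 6 of 6 tiles of the flank matched the genome exactly once. Downstream, 9 of 20 tiles matched once and 11 matched more than once, the most frequent of them at 17901 positions. The reads were 100 nt long, and a read can have a single place although a tile within it is repeated. The tiles therefore do not give the part of the window in which reads could not be placed. The downstream window held GCACTTTGG, letters common in Alu repeats, beginning 74 nt after the boundary and found on either strand of the downstream window in 382 rows (9.08%). The study kept reads with a mapping quality of at least 20 only, which removes reads that fit several places, and the part this filter had in the low downstream counts was not tested. GENCODE 44 in its GRCh37 form has no RPPH1 entry and lists a long noncoding RNA on the same strand, ENSG00000259001. The exon of that RNA covers all 500 nt of the upstream window and 23 nt of the downstream window. Reads of RPPH1 and of this transcript therefore cannot be told apart. PARP2, a DNA damage-responsive poly(ADP-ribose) polymerase gene on the opposite strand, starts 204 nt from the start of RPPH1, outside both windows. The libraries were stranded, the use of strand in the counting is not given in the sources used here, and PARP2 itself was not analysed here.

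**Figure D1:**
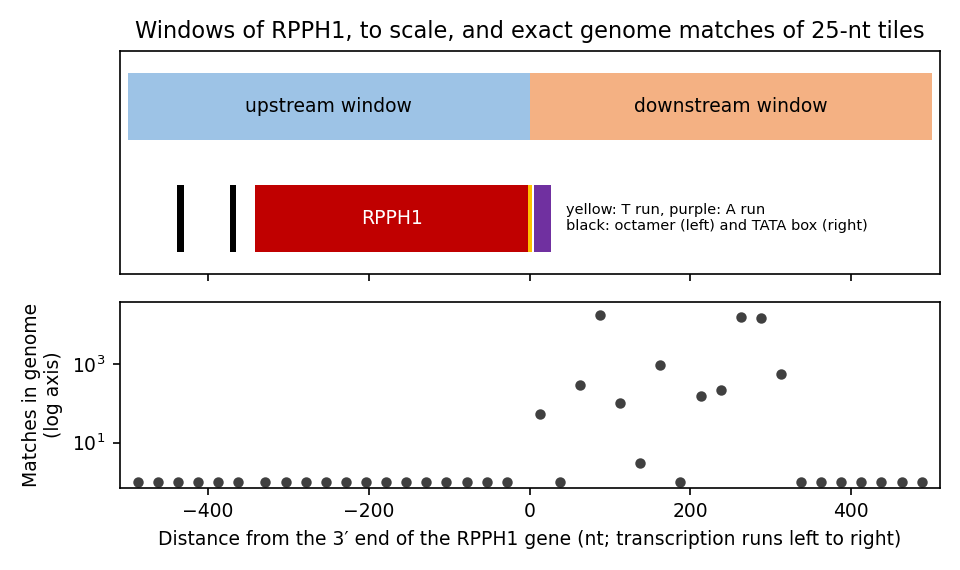
Upper panel, positions of the upstream and downstream windows, the RPPH1 gene (red) and its sequence signals, to scale in nt from the 3′ end of the gene. Lower panel, exact matches in the GRCh37 genome of each 25-nt tile on a log axis, showing 1 match for all 19 upstream tiles and more than 1 for 11 of 20 downstream tiles.

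The upstream window of RPPH1 collected 8754 and 15610 reads in the UV- libraries (replicates 1 and 2) and 48424 and 29108 in the UV+ libraries. These came from upstream totals over all rows of 262657 and 453821 in UV- and of 481798 and 389697 in UV+. RPPH1 therefore took 3.33% (95% Wilson interval 3.26 to 3.4) and 3.44% (3.39 to 3.49) of the upstream reads in UV- cells. In UV+ cells it took 10.1% (9.97 to 10.1) and 7.47% (7.39 to 7.55). The intervals cover counting error only. The UV- libraries lay close together and below both UV+ libraries, which differed more from each other. The mean share was 3.39% ± 0.0755 (SD, n = 2) in UV- and 8.76% ± 1.83 in UV+, a rise of 5.37 percentage points or 2.59-fold, and the 4 possible pairings of a UV+ with a UV- library gave 2.17- to 3.02-fold.

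**Figure D2:**
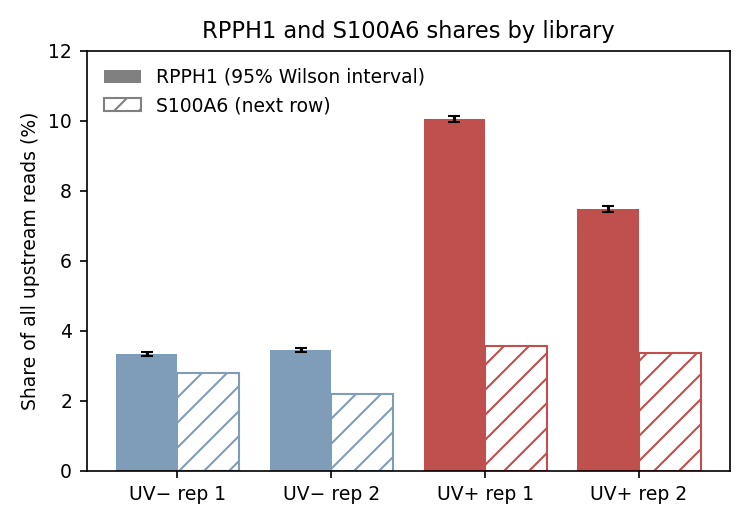
Share of all upstream reads (percent, bars from 0) taken by RPPH1 (filled, with 95% Wilson intervals) and by S100A6 (hatched) in each library. RPPH1 reads 3.33% and 3.44% in the UV- libraries and 10.1% and 7.47% in the UV+ libraries, above S100A6 in each.

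No other row collected as many upstream reads in any of the 4 libraries. Next came S100A6, which encodes a small calcium-binding protein, with 7332 and 9910 reads in UV- and 17230 and 13103 in UV+. RPPH1 exceeded it 1.19- and 1.58-fold in UV- and 2.81- and 2.22-fold in UV+. The lead of RPPH1 was thus narrow in 1 untreated library and more than 2.2-fold in both irradiated ones. Per length, with all reads of the window assigned to the gene, RPPH1 had 35.7 and 37.6 normalized reads per nt of gene in UV- and 115.5 and 82.6 in UV+. S100A6 had 20.4 and 16.3 per nt of window in UV- and 28 and 25.4 in UV+. Against the median row, which stood at 26.4 and 27.1 normalized reads before UV and 22 and 21.3 after it, RPPH1 was 460.7- and 473.0-fold higher in UV- and 1793- and 1323-fold higher in UV+.

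**Figure D3:**
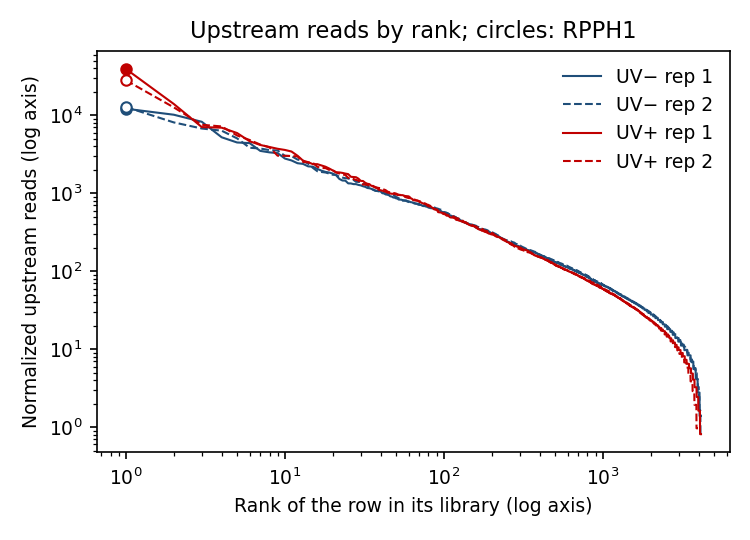
Normalized upstream reads of every row with a value above 0, in order of rank within its library, on log axes (blue, UV-; red, UV+; solid line and filled circle, replicate 1; dashed line and open circle, replicate 2). The circles at rank 1 are RPPH1, at 12182 and 12805 in UV- and 39377 and 28157 in UV+.

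After division by the size factors of the study, which bring the libraries to a common depth, RPPH1 stood at 12182 and 12805 normalized upstream reads in UV- against at 39377 and 28157 in UV+. The conditions did not overlap. The means were 12493 ± 440.6 in UV- and 33767 ± 7933 in UV+ (SD, n = 2), a 2.70-fold difference that ran from 2.20 to 3.23 over the pairings. On the log2(value + 1) scale the difference was 1.41 (SE 0.26). The libraries were of bulk RNA, so more cells holding the RNA and more RNA per cell cannot be told apart.

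The UV+ replicates of RPPH1 differed 1.40-fold and the UV- replicates 1.05-fold. Among the 45 rows with a mean of at least 1000 normalized reads, the median difference between replicates was 1.19-fold in UV+, and 5 rows differed more than RPPH1, up to 1.83-fold for the histone gene HIST2H2AB. In UV- the median was 1.14-fold, 36 rows differed more, and the largest was GAPDH, a glycolytic enzyme gene, at 1.52-fold. RPPH1 was thus more variable than most abundant rows after UV and less variable than most before it.

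The 2.70-fold difference of RPPH1 was the third largest of those 45 abundant rows. SCARNA2, a guide RNA of Cajal bodies, had 3.68-fold and RPLP1, a ribosomal stalk protein gene, 2.75-fold. RNU12, the U12 RNA of the minor spliceosome, followed with 2.51-fold, and the median over the other abundant rows was 1.25-fold. Over the whole table, 381 rows (9.05%) had a larger log2 difference than RPPH1, and among the 645 other rows with a mean of at least 100 reads 35 did. The rank of RPPH1 by level was therefore not matched by its rank by difference.

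Because it was so abundant, RPPH1 weighed on the sums over the table. The summed normalized upstream reads averaged 368891 in UV- and 384378 in UV+, a gain of 15487, while RPPH1 alone gained 21274. The summed level was 1.04-fold higher in UV+ with RPPH1 and 0.984-fold without it. The size factors rest on medians over rows, and leaving RPPH1 out when they were computed anew moved them by at most 0.0419%.

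**Figure D4:**
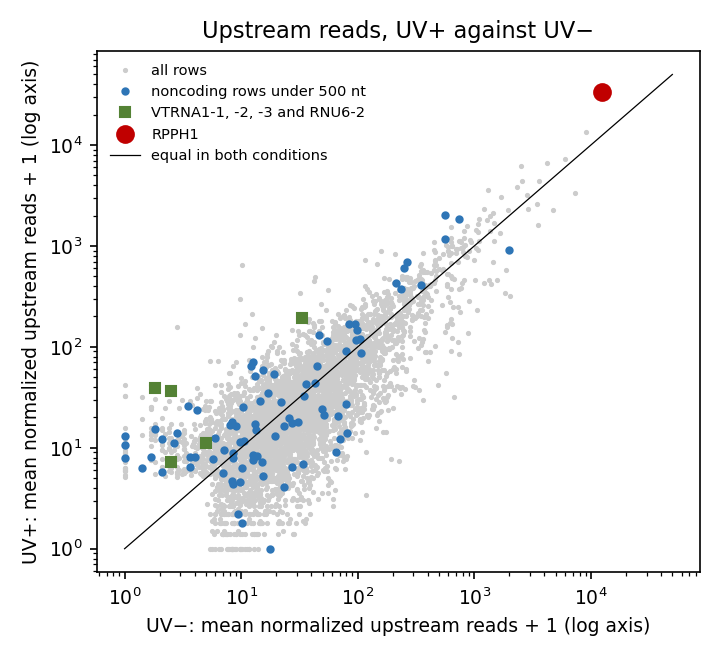
Mean normalized upstream reads plus 1 of each row in UV+ against UV- (log axes, n = 2 libraries each), with noncoding rows under 500 nt in blue, the vault RNA and U6 rows as green squares and RPPH1 in red. RPPH1 sits at the upper right, at means of 12493 in UV- and 33767 in UV+, above the line of equal values.

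The downstream window of RPPH1 was nearly empty. It collected 0 and 2 reads in UV- and 11 and 2 in UV+, 15 in all, against 101896 upstream. The normalized levels were 0 and 1.64 in UV- and 8.94 and 1.93 in UV+, with means of 0.820 ± 1.16 and 5.44 ± 4.96 (SD, n = 2). A single UV+ library thus held 11 of the 15 reads, and the study's minimum of 10 reads in each window was reached downstream in UV+ only. The mean over the 4 libraries was 3.13 normalized reads, compared with 7.95 for the median row, and 206 rows (4.90%) had fewer. The low downstream signal was therefore shared with other rows, none of which had as many upstream reads.

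Per upstream read, the downstream signal of RPPH1 was very low. Downstream reads came to 0.0128% of upstream reads in UV- replicate 2 (95% Wilson interval 0.00351 to 0.0467), to 0.0227% (0.0127 to 0.0407) in UV+ replicate 1 and to 0.00687% (0.00188 to 0.025) in UV+ replicate 2. In UV- replicate 1 the count was 0 of 8754, which allows a share of up to 0.0343%, taken as 3 reads and not as a Wilson limit. The Wilson intervals cover counting error only, and a difference between the conditions was not tested. On the log2 scale with 1 added to each value, the downstream/upstream ratio was -13.57 and -12.24 in UV- and -11.95 and -13.23 in UV+, while the median row stood at -1.61, -1.62, -1.22 and -1.22. On this scale RPPH1 was the lowest of all 4208 rows in each library, but rows with fewer upstream reads and 0 downstream reads had a lower downstream share in the 3 libraries where RPPH1 had any. The ratio of RPPH1 differed by 0.32 (SE 1.00) between the conditions, and this value changed sign when 5 was added instead of 1 or when either replicate 1 was left out.

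**Figure D5:**
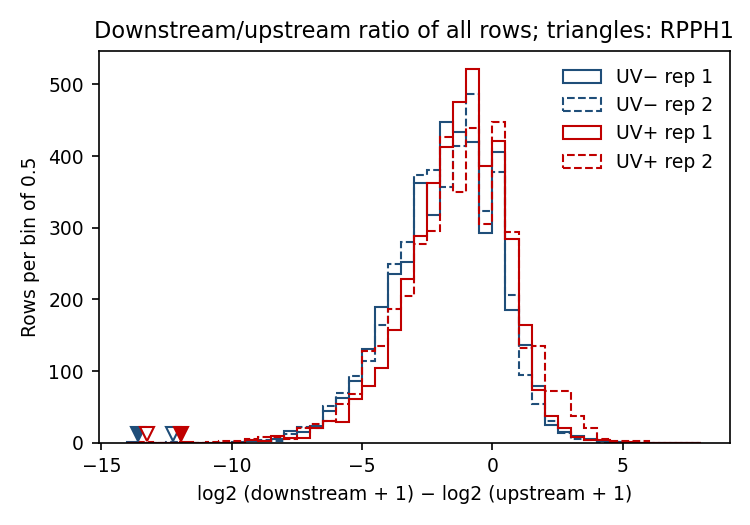
Number of rows per bin of the log2 downstream/upstream ratio (1 added to each value) in the 4 libraries (blue, UV-; red, UV+; solid, replicate 1; dashed, replicate 2). Triangles mark RPPH1 at -13.57 and -12.24 in UV- and -11.95 and -13.23 in UV+, at the low end of the distribution.

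RPPH1 also entered the pooled downstream/upstream ratio, as many upstream reads and almost no downstream ones. Summed over all rows, downstream reads were 19.3% and 17.9% of upstream reads in UV- against 19.2% and 19.6% in UV+. These conditions overlapped (means 18.6% ± 1.01 and 19.4% ± 0.291, SD, n = 2). No test is given, because the sums hold the reads by which RPPH1 was chosen. Without RPPH1 the values were 20.0% and 18.6% in UV- and 21.4% and 21.2% in UV+. The means were 19.3% ± 1.03 and 21.3% ± 0.106, given with no test because the row was left out for its own values. Leaving out this 1 row, a choice made after seeing the data, moved the difference from 0.78 to 1.99 percentage points.

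RPPH1 was the largest part of the noncoding signal. The 416 rows with a noncoding RefSeq accession took 7.31% and 7.44% of all upstream reads in untreated and 15.7% and 13.1% in irradiated cells, of which RPPH1 made up 45.6% and 46.2%, then 63.9% and 56.9%. Without RPPH1 the noncoding rows took 4.11% and 4.15% in UV- and 6.30% and 6.12% in UV+, so the UV+ libraries stood higher with and without it. Measured against noncoding reads alone, the share of RPPH1 differed by 0.39 on the log2 scale rather than by 1.36.

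The other 91 noncoding rows shorter than the window, which by symbol were microRNA, small nucleolar, spliceosomal, vault and other RNAs, had summed shares of 1.91% and 1.97% in UV- and 2.99% and 2.75% in UV+. Each of these sums was below the share of RPPH1 alone. By limma, 27 of the 91 rows were higher and 12 lower in UV+ at an adjusted p under 0.05, where 11.7% of all rows were called higher and 20.7% lower. Their median log2 difference was 0.46, against -0.24 over all rows. Some of these rows, among them VTRNA1-1, VTRNA1-2 and both of RNU6-2, reached the study's minimum of 10 reads through UV+ alone. They could enter only where they were high there, which limits this count and median, and how many others did so was not counted. Of the 15 of them with a mean of at least 100 reads, 2 had a log2 difference at least as large as that of RPPH1. Among all 645 other rows of that level, 35 had a larger one. Calls at that level are not given, because the share called among all rows of that level was not computed.

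Other polymerase III transcripts were few in the table, since 4 of 19 symbols had a row. These were 3 vault RNAs, the small RNAs of the vault ribonucleoprotein particle, and RNU6-2, a copy of the U6 spliceosomal RNA, with 2 rows. At an adjusted p under 0.05, 3 of 5 rows were higher and 0 lower, beside 11.7% and 20.7% of all rows, with a median log2 difference of 2.49. All but VTRNA1-3 reached the study's minimum of 10 reads through UV+ alone, so they could enter the table only where they were high there, and the count and median carry no weight for the list. The vault genes VTRNA1-1, VTRNA1-2 and VTRNA1-3 were 98, 88 and 88 nt long, and the study aligned only trimmed reads of at least 100 nt. No such read fits inside these genes, so their counts include sequence outside them and are not levels of the vault RNAs alone. VTRNA1-3 had 37.6 and 27.1 normalized upstream reads in UV- against 243.1 and 138.3 in UV+. Its UV+ libraries did not overlap the UV- ones, and it rose 5.90-fold (log2 difference 2.49, SE 0.32, adjusted p = 0.000131 by limma). VTRNA1-1 had 1 and 2 upstream reads in UV-, then 46 and 34, and VTRNA1-2 had 0 and 2, then 62 and 27, counts too low in UV- for a fold. Neither RNU6-2 row was called (log2 differences of 1.51 and 1.23, adjusted p of 0.184 and 0.198 by limma). Downstream, VTRNA1-3 had 14 and 21 reads in UV- and 177 and 89 in UV+ and VTRNA1-1 had 2 and 2, then 71 and 54, whereas the RNU6-2 rows had 1 and 2, then 6 and 8, and 4 and 3, then 14 and 17. Without either UV- library no row of the list was called. RMRP, the RNA of RNase MRP and the closest relative of RPPH1, was among the symbols without a row.

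Among 11 protein subunits of RNase P and RNase MRP 6 were measured, and 1 was higher and 0 lower in UV+, beside 11.7% and 20.7% of all rows. Their median log2 difference was 0.23, against -0.24 over all rows. The called gene was RPP25L, a paralog of the subunit gene RPP25. It had 36.2 and 44.3 normalized upstream reads in UV- against 70.7 and 91.9 in UV+, without overlap (log2 difference 0.99, SE 0.31, adjusted p = 0.0247 by limma), and it was not called without either UV- library, without UV+ replicate 2, without the variance trend or by DESeq2. RPP38 stood at 65.4 and 68.1 in UV- and 72.4 and 67.7 in UV+ and RPP25 at 4.17 and 12.3, then 18.7 and 17.4, and neither passed. For the downstream/upstream ratio, POP1 (log2 difference 2.04, adjusted p = 0.367 by limma) and POP5 (2.00, adjusted p = 0.33), subunits of both enzymes, passed the study's unadjusted threshold of 0.05 but not adjustment over all rows, where 11.0% of all rows were higher and 2.40% lower. POP1 had 0 and 0 downstream reads in UV- and 4 and 6 in UV+, so its ratio rests on 10 reads, and it reached the downstream minimum through UV+ alone.

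Of 16 genes of tRNA maturation other than nuclear RNase P, 12 were measured, with 2 higher and 3 lower upstream, beside 11.7% and 20.7% of all rows. These shares were near those of all rows, and the median log2 difference was 0.37. CLP1, an RNA kinase of the tRNA splicing endonuclease complex and also a part of the pre-mRNA cleavage machinery, had 8.35 and 19.7 normalized upstream reads in UV- against 154 in both UV+ libraries (log2 difference 3.48, SE 0.39, adjusted p = 4.25e-05 by limma). CLP1 had 1 and 2 downstream reads in UV-, then 17 and 4, so it reached the downstream minimum through UV+ alone. For the CLP1 protein, the paper reported a decrease after UV by Western blot. KIAA0391 encodes PRORP, the catalytic protein of the RNase P of human mitochondria, which works without an RNA. It fell from 103 and 67.3 in UV- to 28.5 and 27.1 in UV+ (log2 difference -1.55, SE 0.33, adjusted p = 0.00364 by limma). KIAA0391 had 5 and 20 downstream reads in UV-, then 0 and 4, so it reached the downstream minimum through UV- alone. Its partner TRMT10C, a tRNA methyltransferase, was higher (1.2, adjusted p = 0.0264), and HSD17B10, a dehydrogenase that is the remaining subunit, was not called (0.42, adjusted p = 0.315). XPOT, the tRNA exporter, was at 241 and 185 in UV- and 88.6 and 80.3 in UV+ (-1.31, adjusted p = 0.00154).

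Of 32 genes of RNA polymerase III and of its promoter factors 12 were measured, with 5 higher and 2 lower, beside 11.7% and 20.7% of all rows. Their median log2 difference was 0.43, against -0.24 over all rows. SNAPC5, a subunit of the complex that binds promoters of the RPPH1 type, rose from 27.8 and 24.6 normalized upstream reads in UV- to 176 and 116 in UV+ (log2 difference 2.41, SE 0.31, adjusted p = 0.000127 by limma). BRF2, the initiation factor particular to such promoters, rose from 25 and 20.5 to 51.2 and 51.3 (1.14, SE 0.36, adjusted p = 0.0264 by limma). The polymerase subunit genes POLR3D (1.52), POLR3C (1.04) and POLR1C (1.96), the last shared with polymerase I, were also higher. POLR1C had 1 and 2 downstream reads in UV-, then 30 and 3, so it reached the downstream minimum through UV+ alone. SNAPC1, a second subunit of the promoter-binding complex, had 10 and 12 upstream reads in UV- against 1 and 0 in UV+, and POLR3B, the gene of the second largest polymerase subunit, had 6 and 15, then 0 and 0. Both were called lower (adjusted p = 0.0129 and 0.0118 by limma), but on few reads, and both reached the minimum of 10 upstream reads through UV- alone. SNAPC1 was also the 1 row of the list with a higher ratio at the unadjusted threshold (2.79, adjusted p = 0.220 by limma), with 7 and 14 downstream reads in UV- and 14 and 5 in UV+. These list calls depended on both UV- libraries. Without either one 0 upstream calls remained in any of the 4 lists, and over the whole data set only 1 or 2 rows were called higher and 0 lower.

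Rows whose pattern over the 4 libraries was nearest to that of RPPH1 were found by the distance between centred log2 upstream levels among the 643 of those 645 other rows of at least 100 mean reads that carried a gene name. The nearest were S100A13 (distance 0.0645), a calcium-binding protein gene, and RPLP1 (0.0661). NOP16 (0.161) and NOP2 (0.178), which act in ribosome biogenesis in the nucleolus, and FTL (0.163), the light chain of ferritin, came next. S100A13 had 1 and 5 downstream reads in UV-, then 0 and 11. NOP16 had 0 and 0, then 6 and 4, and NOP2 had 0 and 0, then 9 and 6. S100A13, NOP16 and NOP2 thus reached the study's downstream minimum of 10 reads through UV+ alone. RPLP1 had 1314 and 1306 normalized upstream reads in UV- against 4175 and 3039 in UV+, with UV+ replicate 1 above UV+ replicate 2, as for RPPH1. With 4 libraries the distance mostly reflects the size of the UV difference, which was 2.71-fold for S100A13, 2.66-fold for NOP16, 2.77-fold for NOP2 and 2.47-fold for FTL. For the downstream window the nearest rows were HMGN3-AS1 (0.509), MESDC1 (0.580), PPP1R15B (0.633), RPL35A (0.702) and CEBPZOS (0.726), all far less alike and set against 15 reads of RPPH1.

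The rows next to RPPH1 in mean share of upstream reads did not all move with it. FTL was higher in UV+ (log2 difference 1.29, adjusted p = 0.000604 by limma), as was B2M, the invariant chain of class I antigen-presenting molecules (0.66, adjusted p = 0.0332). TM4SF1, a membrane protein gene, was lower (-1.14, adjusted p = 0.00213). S100A6 (0.55, SE 0.23) and ALDH1A1, an aldehyde dehydrogenase gene (0.30, SE 0.22), were not called.

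On its chromosome, the only row with a gene within 50 kb of RPPH1 was TTC5, 37076 nt away, a gene whose protein takes part in the p53 stress response. It had 15.3 and 13.1 normalized upstream reads in UV- against 12.2 and 9.67 in UV+ and was not called (log2 difference -0.35, SE 0.55, adjusted p = 0.645 by limma).

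Few of the markers chosen to check the labels were measured. Of 5 epithelial markers 2 had a row, KRT18 and KRT7, keratins of simple epithelium, and both were present in all 4 libraries. KRT18 was lower in UV+, at 637 and 799 normalized upstream reads in UV- against 210 and 290. None of 6 markers of leukocytes, fibroblasts or endothelium had a row, but a missing row does not show that a cell type was absent. Of 3 irradiation markers 2 had a row, and CDKN1A had none. The p53 target MDM2 had 44.5 and 50 normalized upstream reads in UV- against 274.9 and 259.2 in UV+. Its downstream reads were 1 and 8 in UV-, then 44 and 33, so it reached the downstream minimum through UV+ alone. The rise is thus a weak check of the labels. MALAT1, a nuclear RNA, had 114 and 115 in UV- and 47.2 and 115 in UV+, so it was low in the UV+ library in which RPPH1 was highest. The part of this difference in the RPPH1 values was not tested.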

How the data were processed

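The authors sequenced rRNA-depleted nuclear RNA with stranded, single-end reads of 100 nt, used cutadapt for trimming and TopHat2 for alignment to hg19, kept a mapping quality of at least 20 with SAMtools and counted with featureCounts in R 3.4.0. The deposited values are signal: reads per window divided by DESeq2 size factors. Rows had at least 10 reads in both windows in either condition. The authors' comparison columns (fold changes, statistics and p-values) were not used. Multiplying by the size factors (0.719 and 1.22 in UV-, 1.23 and 1.03 in UV+) gave whole reads for 100% of values within 1e-06, so upstream depth was 262657 to 481798 reads and downstream depth 50814 to 92566. In 3 rows the annotation cells were shifted, and these rows were kept with their values but without a name or position. A further 3 rows with dates for symbols were kept without a name.

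log2(value + 1) was fitted by condition with limma 3.58.1 (R 4.3.3, variance trend) over all 4208 rows, Benjamini-Hochberg adjusted and called at an adjusted p under 0.05, and the ratio at an unadjusted p under 0.05. On simulated data, 87.0% of 200 rows changed 4-fold among 4208 were recovered, with 11 unchanged rows called. RPPH1, the gene lists and the tests were chosen with earlier results of these data known. Named genes were RPPH1, the next 5 rows by share, the 5 nearest by pattern in each window, members of each list with the smallest p, all rows of other polymerase III transcripts and rows within 50 kb. Genes outside this rule (SCARNA2, RNU12, HIST2H2AB, GAPDH, HSD17B10, RPP38, POLR3C, BRF2, SNAPC1) were named after their values were seen, and 1 member of the tRNA maturation list is not reported here by name. Alternatives were other pseudocounts, filters, scalings, edgeR 4.0.16, DESeq2 1.42.0, a replicate block and each library left out. RefSeq gene lengths, the GRCh37 sequence and GENCODE 44 lifted to GRCh37 gave the annotation. With 2 libraries per condition no search for outlying libraries was possible.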

Additional observations from a re-analysis of the deposited data

How the results depend on the processing

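RPPH1 kept its direction in its upstream level under every alternative tried: the log2 difference of 1.41 was 1.61 with TMM factors, 1.44 with scaling to totals without RPPH1 and 1.17 to 1.66 without 1 library. Its share differed by 1.14 to 1.57 on the log2 scale without 1 library, and by 0.39 among noncoding rows. Its downstream difference of 1.73 became 2.21 with 0.5 added and 0.77 with 5 added, and 0.85 to 2.61 without 1 library. Its ratio difference reversed to -0.64 with 5 added, to -0.35 without UV- replicate 1 and to -0.32 without UV+ replicate 1. Without 1 library this difference ranged from -0.35 to 0.98. The cause of these shifts was not tested, but the ratio rests on 15 downstream reads. The summed percent difference ranged from 0.0720 to 1.50 points without 1 library and was 1.99 without RPPH1. Over the table, 492 rows higher and 872 lower became 241 and 574 without the variance trend, 322 and 562 with DESeq2, and 1 to 280 higher and 0 to 820 lower without 1 library. edgeR called 534 and 887. For the ratio, 464 higher and 101 lower became 245 and 44 at a mean of at least 10, 278 and 203 with TMM factors, and 217 to 568 and 36 to 270 without 1 library. Among RNase P proteins, 1 higher became 0 without the trend or with DESeq2 and 0 to 1 without 1 library. Their 2 higher ratios became 0 with TMM factors, 1 with 5 added, a mean of at least 10, total reads, the replicate block or DESeq2, and 0 to 2 without 1 library. In tRNA maturation, 2 higher and 3 lower became 1 and 1 without the trend, 1 higher with DESeq2, and 0 to 2 of each without 1 library, while 0 ratio calls became 1 higher with edgeR, 1 lower with 5 added and 0 to 1 lower without 1 library. In the polymerase III machinery, 5 higher became 2 without the trend, 3 with DESeq2 and 0 to 2 without 1 library, 2 lower became 0 at a mean of at least 10, 1 with DESeq2 and 0 to 2 without 1 library, and 1 higher ratio became 0 at a mean of at least 10. The 3 higher polymerase III transcripts became 0 to 4 without 1 library. With the replicate block the counts were 569 higher and 985 lower, and 2 ratios of the RNase P proteins became 1. The replicate numbers did not pair the libraries: deviations of same-numbered libraries correlated at 0.0331 upstream (3343 rows) and 0.0708 downstream (1715 rows). Without 1 library the lone sample is assumed to vary like the other group.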
